A study of Mus musculus with 8 samples.

Results

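Oligosaccharyltransferase (OST) is the enzyme of the endoplasmic reticulum (ER) that attaches the first sugar chain to proteins entering the secretory pathway. Signals were examined for 10 of its subunit genes, *Krtcap2*, *Ostc*, *Stt3a*, *Stt3b*, *Tusc3*, *Rpn1*, *Rpn2*, *Ddost*, *Dad1* and *Ost4*, out of 22206 probe sets on the array. *Krtcap2* was selected on its difference between the groups compared here, so its values are a description without a test. The other 9 genes were chosen by name as subunits of the same enzyme, with earlier results of these data known. Each of the 10 genes had 1 probe set of its own, shared with no other gene. They lie on 8 chromosomes (2 for *Rpn2*, 3 for *Krtcap2* and *Ostc*, 4 for *Ddost*, 5 for *Ost4*, 6 for *Rpn1*, 8 for *Tusc3*, 9 for *Stt3a* and *Stt3b*, and 14 for *Dad1*), so the set is not a cluster of neighbouring genes.

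The samples were gastrocnemius (GAS) muscles of wild-type male C57/Bl6j mice, labelled as 14 weeks of age, 3 weeks after both legs had been injected with adeno-associated viruses (AAV). One leg of each mouse received a virus with a short hairpin RNA against *Mytho* (AAV sh-RNA MYTHO), and the opposite leg received a virus with a scrambled hairpin (AAV sh-RNA scrmb), giving 4 muscles per group and 8 arrays. Both groups therefore carried a virus of serotype 1, which favours skeletal muscle, with the hairpin driven by the U6 promoter. That promoter is active in most cell types, no uninjected muscle was analysed here, and every sample was whole muscle. The 4 mice are called animals A to D, and their arrays scrmb A to D and MYTHO A to D.

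OST works at the protein channel of the ER, where it moves a preassembled oligosaccharide from the lipid dolichol onto asparagines of a passing protein. Cells have a pair of OST complexes that share most subunits. The complex built on STT3A sits at the channel and acts while the protein is being made, and KRTCAP2 and OSTC are the subunits that belong to it alone. The complex built on STT3B acts later on sites that were skipped, with TUSC3 or MAGT1 as its oxidoreductase subunit. Skeletal muscle needs N-glycans on proteins such as the acetylcholine receptor and the sarcoglycans, and inherited defects of the pathway can cause myasthenia and muscular dystrophy.

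The *Krtcap2* promoter is shown because it holds an ER stress response element II (ERSE-II), ATTGGNCCACG, a motif known from genes induced by the unfolded protein response. It was looked for on both strands from 250 bases before to 50 after each annotated start in RefSeq (GRCm38.p6, the mm10 assembly). Windows were given for 8 of the 10 genes, all but *Ostc* and *Tusc3*. The motif occurred in 12 of 32851 windows, or 0.0365%, and *Krtcap2* was the only one of these 8 genes to hold it. Its copy begins at base 18 after the second of the annotated starts. It is shown with the copies of *Herpud1* and *Dnajb11*, the other genes with the motif among the ER chaperone and unfolded protein response genes described further on, and the capitals mark the motif.
Krtcap2, chr3:89246481-89246509, plus strand: gggacacggATTGGACCACGgacggggcg
Herpud1, chr8:94386368-94386396, plus strand: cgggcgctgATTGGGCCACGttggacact
Dnajb11, chr16:22857843-22857871, plus strand: ccggcggcgATTGGCCCACGcctggctgc

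The 250 bases before the same *Krtcap2* start are shown next as the context of the motif. Their first part overlaps the neighbouring gene *Trim46*, and the outermost annotated end of *Krtcap2* lies upstream of them. They hold 1 further CCACG, in capitals, and no CCAAT on either strand.
Krtcap2, chr3:89246223-89246472, plus strand: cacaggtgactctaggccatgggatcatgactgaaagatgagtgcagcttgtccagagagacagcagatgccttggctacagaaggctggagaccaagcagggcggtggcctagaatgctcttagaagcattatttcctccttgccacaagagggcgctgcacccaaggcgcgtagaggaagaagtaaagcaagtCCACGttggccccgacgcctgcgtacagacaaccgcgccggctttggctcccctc

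The ERSE-II letters contain ATTGG, which is CCAAT read on the opposite strand, and CCACG. Among all genes, 41.1% had CCAAT in a window and 35.5% had CCACG, and each occurred in 7 of the 8 OST genes with a window. For *Krtcap2* the first of these was the one inside its ERSE-II. The related element ERSE, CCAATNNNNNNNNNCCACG, was in 0.119% of windows, and TGACGTGG, the core of the unfolded protein response element, in 0.676%. Neither was in a window of the 8 OST genes. A match is a description of letters and not a binding site, and the motifs were chosen after the *Krtcap2* sequence had been read. Of the 12 genes with ERSE-II in a window, 9 had a probe set of their own. The 8 other than *Krtcap2* had a median difference between MYTHO and scrmb of -0.02 in log2, with 3 above 0 and 5 below. *Herpud1*, a membrane protein of ER-associated degradation, had a log2 signal of 14.36 ± 0.41 in scrmb and 14.50 ± 0.17 in MYTHO (SD, n = 4), and *Dnajb11*, a co-chaperone in the ER, had 7.81 ± 0.26 and 7.42 ± 0.38 (SD, n = 4). The genes that share the motif with *Krtcap2* thus lay on both sides of 0.

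All signals below are the deposited log2 values, on which a difference of 1 is a doubling. They run from 2.38 to a ceiling of 19.93, and array medians lay between 6.39 and 6.47. *Mytho* was lower on every MYTHO array than on every scrmb array. The gene, listed as *D230025D16Rik* (Entrez gene 234678, chr8:105225146-105253053), had log2 signals of 11.35, 11.31, 10.78 and 11.05 in scrmb A to D and 8.16, 8.20, 8.80 and 8.08 in MYTHO A to D. Its mean fell by 2.81 on the log2 scale (SE 0.21, limma adjusted p = 0.00044), to 14.2% of the scrmb level.

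*Krtcap2* (Entrez gene 66059) lies at chr3:89245904-89249729. Its log2 signals were 13.43, 12.67, 12.15 and 13.31 in scrmb A to D, and 14.71, 13.92, 14.70 and 14.05 in MYTHO A to D. All 4 MYTHO arrays were above all 4 scrmb arrays, with scrmb A the highest of its group and MYTHO B the lowest of its own. The means were 12.89 ± 0.60 and 14.35 ± 0.42 (SD, n = 4), a difference of 1.46, or 2.74-fold. Within animals A to D the MYTHO leg exceeded the scrmb leg by 1.28, 1.25, 2.55 and 0.74. Animal C, with the lowest scrmb signal, had the largest difference, and without both of its arrays the mean difference was 1.09. No p is given because the gene was selected on this contrast. Over all probe sets, 58 were at least 2-fold higher with an unadjusted p under 0.05 (0.261%) and 277 at least 2-fold lower (1.25%).

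**Figure D1:**
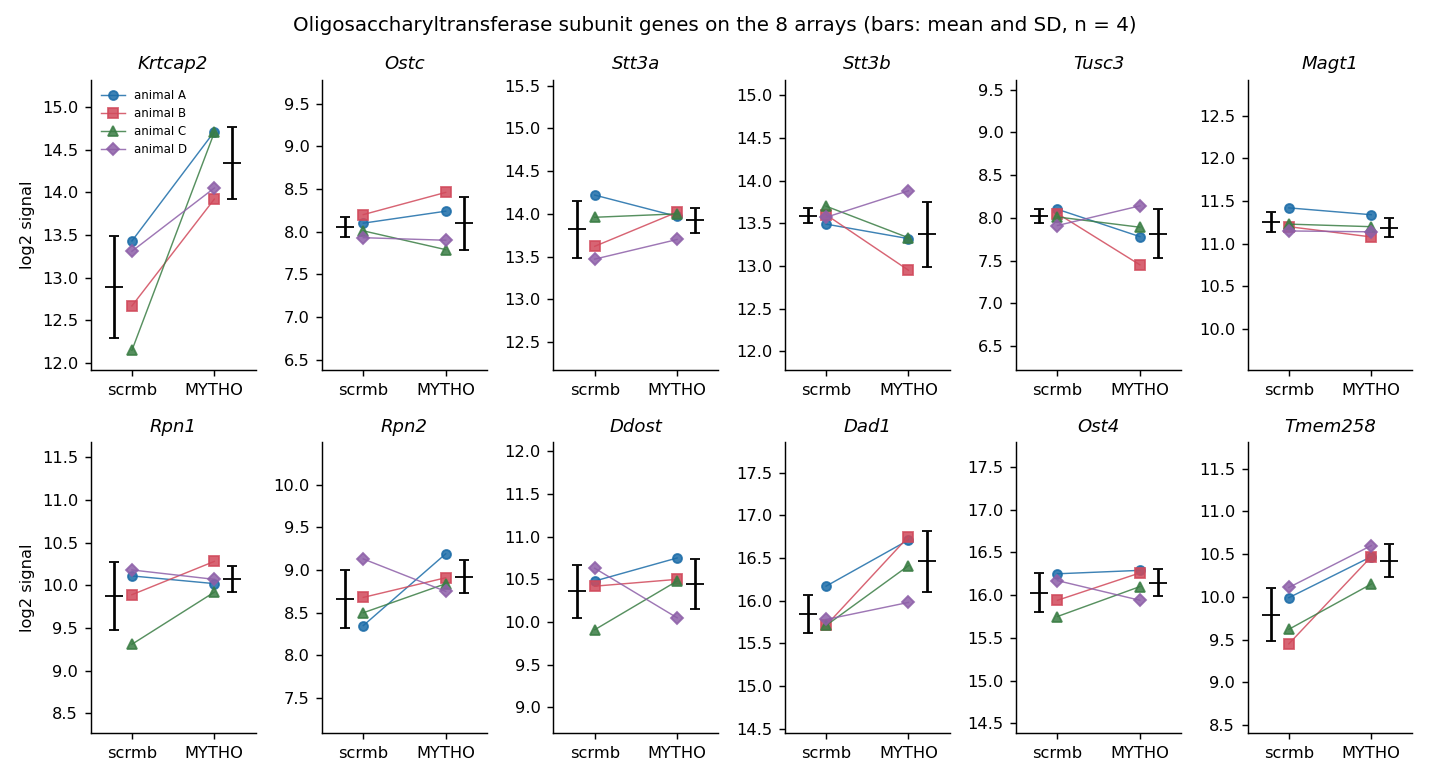
Log2 signal of 12 OST subunit genes on the 8 arrays, the 10 described genes plus *Tmem258* and *Magt1*. Points are arrays, coloured lines join the legs of 1 animal, and black bars give the mean and SD of each group (n = 4). All panels span the same number of log2 units. The *Krtcap2* means are 12.89 and 14.35, and in the other panels apart from *Tmem258* the groups overlap.

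*Ostc* is the other subunit that belongs to the STT3A complex alone, and its mean was nearly the same in both groups. The log2 signals of *Ostc* were 8.10, 8.20, 8.01 and 7.93 in scrmb A to D and 8.24, 8.46, 7.79 and 7.90 in MYTHO A to D. The groups overlapped, animals A and B were higher and animals C and D lower in the MYTHO leg, and the difference was 0.04 (95% interval -0.38 to 0.46, limma adjusted p = 0.963). In animal C, where *Krtcap2* differed by 2.55, *Ostc* differed by -0.22. *Stt3a*, the catalytic subunit of that complex, had 14.22, 13.62, 13.96 and 13.47 in scrmb and 13.97, 14.02, 14.00 and 13.70 in MYTHO. The scrmb arrays of *Stt3a* spanned the MYTHO arrays, with a difference of 0.105 (95% interval -0.33 to 0.54, limma adjusted p = 0.880). The interval of each of these genes lies below a doubling. For *Ostc* and for *Stt3a*, leaving out 1 array could turn the sign of the difference.

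Subunits particular to the STT3B complex had mean differences below 0, none of which passed the test. *Stt3b*, its catalytic subunit, had 13.49, 13.60, 13.70 and 13.57 in scrmb A to D and 13.32, 12.95, 13.33 and 13.88 in MYTHO A to D. Animals A, B and C were lower and animal D higher in the MYTHO leg, and the difference was -0.22 (95% interval -0.67 to 0.23, limma adjusted p = 0.723). *Tusc3*, an oxidoreductase subunit, showed the same directions animal by animal, with 8.10, 8.05, 8.01 and 7.91 in scrmb and 7.78, 7.45, 7.89 and 8.14 in MYTHO. Its difference was -0.20 (95% interval -0.61 to 0.20, limma adjusted p = 0.715). For both genes the scrmb arrays lay close together, with SDs of 0.09 and 0.08, and the MYTHO arrays were more spread, with SDs of 0.38 and 0.29. Both values moved with single arrays, to -0.080 and -0.081 without MYTHO B and -0.39 and -0.31 without MYTHO D. *Magt1*, the alternative oxidoreductase, was 11.25 ± 0.12 in scrmb and 11.19 ± 0.11 in MYTHO (SD, n = 4), a difference of -0.06 (limma adjusted p = 0.920).

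Among the subunits shared by both complexes, *Dad1* had the largest difference of the tested members. DAD1 is a small membrane protein that was named as a defender against cell death. Its log2 signals were 16.17, 15.71, 15.71 and 15.78 in scrmb A to D and 16.71, 16.75, 16.41 and 15.98 in MYTHO A to D. The MYTHO leg was higher in 4 of 4 animals, by 0.54, 1.04, 0.70 and 0.20, but the groups overlapped because scrmb A at 16.17 exceeded MYTHO D at 15.98. The means were 15.84 ± 0.22 and 16.46 ± 0.36 (SD, n = 4), which is 1.54-fold, with a difference of 0.62 (SE 0.21, 95% interval 0.15 to 1.09). The unadjusted limma p was 0.0133 and the adjusted p was 0.269, so *Dad1* did not pass the test over all probe sets.

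*Tmem258*, another small shared subunit that was not among the 10 genes, behaved alike in size. It had 9.99, 9.45, 9.62 and 10.11 in scrmb A to D and 10.47, 10.47, 10.15 and 10.60 in MYTHO A to D. The groups did not overlap and the MYTHO leg was higher in 4 of 4 animals, by 0.48, 1.02, 0.53 and 0.49. The difference was 0.63 (SE 0.20, unadjusted p = 0.00851, limma adjusted p = 0.236), which also missed the threshold. *Ost4*, the smallest subunit, had 16.25, 15.94, 15.75 and 16.17 in scrmb and 16.29, 16.26, 16.10 and 15.94 in MYTHO, a difference of 0.12 (95% interval -0.28 to 0.52, limma adjusted p = 0.842). That value was 0.028 without scrmb C, 0.19 without scrmb A and 0.019 after quantile normalization.

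The large shared subunits had smaller differences than *Dad1*. *Rpn1*, a ribophorin that presents substrates to the catalytic subunit, had 10.11, 9.89, 9.31 and 10.18 in scrmb A to D and 10.02, 10.28, 9.92 and 10.07 in MYTHO A to D. Scrmb C was the low array of *Rpn1*, and the difference of 0.20 (95% interval -0.27 to 0.67, limma adjusted p = 0.762) was 0.0125 without it. *Rpn2*, the second ribophorin, had 8.35, 8.68, 8.50 and 9.13 in scrmb and 9.19, 8.91, 8.84 and 8.75 in MYTHO. Its highest scrmb and its lowest MYTHO array both came from animal D, and the difference was 0.26 (95% interval -0.19 to 0.71, limma adjusted p = 0.665). It was 0.15 without scrmb A, 0.17 without MYTHO A and 0.41 without scrmb D. *Ddost*, the OST48 scaffold subunit, had 10.48, 10.42, 9.91 and 10.63 in scrmb and 10.75, 10.50, 10.48 and 10.05 in MYTHO. The *Ddost* groups overlapped widely, with a difference of 0.09 (95% interval -0.38 to 0.55, limma adjusted p = 0.911). That difference was -0.065 without scrmb C and 0.22 without MYTHO D.

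**Figure D2:**
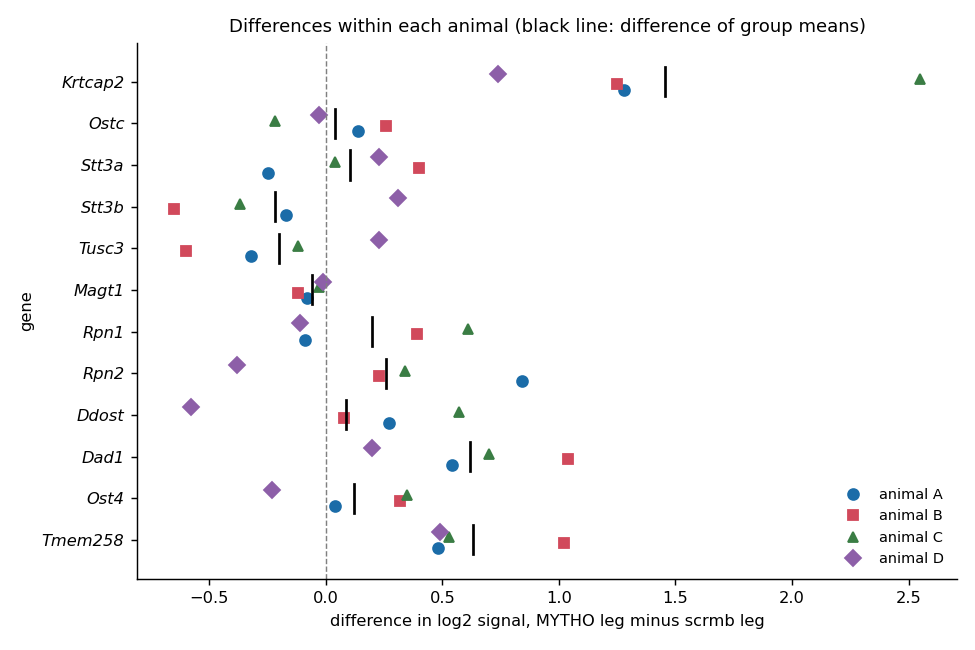
Difference in log2 signal between the MYTHO and the scrmb leg of each animal for 12 OST subunit genes. Points are animals A to D, black lines are the differences of group means, and the dashed line marks 0. *Krtcap2* lies between 0.74 and 2.55, *Dad1* and *Tmem258* are above 0 in all 4 animals, and the points of animal D are below 0 for *Rpn1*, *Rpn2*, *Ddost* and *Ost4* and above 0 for *Stt3b* and *Tusc3*.

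Counted together, 8 of the 10 genes had a mean difference above 0 and 2 below. Without *Krtcap2*, which was selected on this contrast, 7 of 9 were above 0. Over all probe sets, 10870 were above 0 and 11241 below. Among the 9 tested genes, 0 passed an adjusted p under 0.05 in limma and 1 (*Dad1*) had an unadjusted p under 0.05. Over all probe sets, 2 passed the adjusted threshold as higher (0.00901%) and 4 as lower (0.018%), so few calls of any kind were made at this size. At the unadjusted threshold, 1068 probe sets were higher (4.81%) and 1683 lower (7.58%). The groups overlapped for all 9 tested genes, and over all probe sets they did not overlap for 575 as higher (2.59%) and 860 as lower (3.87%). The median difference of the 9 tested genes was 0.105, and that of all probe sets was -0.01, with the middle 50% of all probe sets between -0.21 and 0.19. The median of the 9 genes thus lay inside that range, while *Rpn1*, *Rpn2* and *Dad1* lay above it and *Stt3b* just below. *Dad1* was also above the 95th percentile of all probe sets, 0.49.

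The subunits were not alike from animal to animal. The median difference of the 9 genes was 0.04 in animal A, 0.26 in animal B, 0.34 in animal C and -0.03 in animal D. In animal D, 4 of the 9 genes were higher in the MYTHO leg, against 5, 7 and 6 in animals A, B and C. Without both arrays of animal D the median of the 9 differences was 0.24. *Krtcap2* was the lowest in difference in that animal as well, at 0.74.

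Over the 8 arrays, *Dad1* followed *Krtcap2* most closely among the members, with a Pearson correlation of 0.792. *Ost4* (0.650), *Rpn1* (0.576), *Rpn2* (0.552) and *Ddost* (0.532) followed, then *Stt3a* (0.242) and *Ostc* (-0.05), and *Tusc3* (-0.365) and *Stt3b* (-0.438) ran the other way. The arrays come from 4 animals, the groups themselves set part of each correlation, and no p is given. Over 21348 unsaturated single-gene probe sets, the 5 most like *Krtcap2* were *Pias3* (0.990), *Nqo2* (0.967), *Tmem184b* (0.958), *Nenf* (0.953) and *Syt7* (0.951). Their mean differences were 0.36, 0.93, 0.44, 0.54 and 0.50, a direction that follows from choosing them by their likeness to *Krtcap2*. *Pias3*, a SUMO ligase, had 7.58, 7.39, 7.29 and 7.58 in scrmb A to D and 7.92, 7.75, 7.84 and 7.76 in MYTHO A to D, nearly the order of the *Krtcap2* arrays with a smaller span. No OST gene was among these 5.

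The steps before and after OST were described with 4 lists of pathway genes. Assembly of the dolichol-linked oligosaccharide, the donor that OST uses, held 27 genes with a median difference of 0.12. That median ran from 0.071 to 0.23 without 1 array. Of the 27 genes, 19 were above 0 and 8 below, beside 10870 above and 11241 below over all probe sets. Its highest genes were *Mpi* at 0.71 (limma adjusted p = 0.328) and *Pmm2* at 0.53 (limma adjusted p = 0.411), which make mannose phosphates for the donor. Both had overlapping groups and missed the threshold. Its lowest were *Alg1*, a mannosyltransferase, at -0.33 (limma adjusted p = 0.592), and *Dpm1*, the catalytic subunit of dolichol-phosphate mannose synthase.

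The *Dpm1* probe set also carries the name of *Adnp*, so the genes cannot be told apart there. Its log2 signals were 10.62, 11.29, 10.80 and 10.26 in scrmb A to D and 9.52, 9.21, 8.89 and 9.99 in MYTHO A to D. The groups did not overlap and the MYTHO leg was lower in 4 of 4 animals, by a mean of -1.34 (SE 0.27, limma adjusted p = 0.0965). It was the only one of the 4 lists' probe sets to differ by 2-fold or more. *Dpm3*, the partner that anchors DPM1 in the membrane, had 5.95 ± 0.20 in scrmb and 6.07 ± 0.17 in MYTHO (SD, n = 4), a difference of 0.13 (limma adjusted p = 0.823).

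Entry of proteins into the ER, the step at which the STT3A complex works, held 28 genes with a median difference of -0.02 (0.02 after median centring of the arrays), 13 above 0 and 15 below. *Sec61a2*, a channel subunit, had 12.31 ± 0.19 in scrmb and 11.76 ± 0.11 in MYTHO (SD, n = 4) without overlap, a difference of -0.55 (limma adjusted p = 0.234). *Srpr*, the receptor of the signal recognition particle, was at -0.42 (limma adjusted p = 0.334), and *Srp72*, a protein of that particle, at 0.43 (limma adjusted p = 0.351), also without overlap. After *Srp72* the highest were *Ssr4*, of the translocon-associated complex, and *Tram2*, both at 0.235 with limma adjusted p of 0.689 and 0.682. The channel subunit *Sec61a1* differed by 0.21, with groups of 11.19 ± 0.38 and 11.40 ± 0.26 (SD, n = 4). Genes of this step were thus spread on both sides of 0 beside *Krtcap2*.

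Trimming of the attached glycan and the calnexin cycle, which folds and checks the glycoproteins, held 19 genes, 14 above 0 and 5 below. Their median difference was 0.10, and 0.055 to 0.19 without 1 array. *Ganab*, the catalytic subunit of glucosidase II, had 7.30 ± 0.46 in scrmb and 8.09 ± 0.35 in MYTHO (SD, n = 4), a difference of 0.80 (limma adjusted p = 0.242). *Lman2*, a cargo lectin, was at 0.40 (limma adjusted p = 0.602). *Mcfd2*, a cofactor of the ER export receptor, was at -0.20 (limma adjusted p = 0.707), and *Ngly1*, the glycanase of the cytosol, at -0.175 (limma adjusted p = 0.753). All groups in this list overlapped.

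ER chaperones and genes of the unfolded protein response held 23 genes with a median difference of 0.04, 13 above 0 and 10 below. *Syvn1*, a ubiquitin ligase of ER-associated degradation, was at 0.425 (limma adjusted p = 0.466) and *Ern1*, the stress sensor IRE1, at 0.40 (limma adjusted p = 0.488). *Dnajb11* was at -0.39 (limma adjusted p = 0.514) and *Pdia6*, a disulfide isomerase, at -0.23 (limma adjusted p = 0.760). *Hspa5*, the main ER chaperone, was 14.93 ± 0.13 in scrmb and 14.96 ± 0.20 in MYTHO (SD, n = 4), a difference of 0.04. *Ddit3*, which codes for CHOP, was 8.71 ± 0.06 and 8.57 ± 0.23 (SD, n = 4). In none of the 4 lists did a gene pass an adjusted p under 0.05 in the main limma fit. The count was 1 with eBayes trend and robust and 1 without scrmb D, as given further on. At an unadjusted p under 0.05, 1 gene higher and 1 lower were counted in the dolichol list, 1 higher and 2 lower in the entry list, 1 higher in the trimming list and 0 in the chaperone list. Of 27, 28, 19 and 23 genes, these counts are near or below the 4.81% and 7.58% of all probe sets. Groups did not overlap for 1 gene higher and 1 lower in the dolichol list, and 1 higher and 3 lower in the entry list. There were 0 such genes in the trimming list and 1, higher, in the chaperone list. Over all probe sets 2.59% were higher and 3.87% lower without overlap. Those not yet named were *Dolk*, *Srp54a* and *Derl3*.

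**Figure D3:**
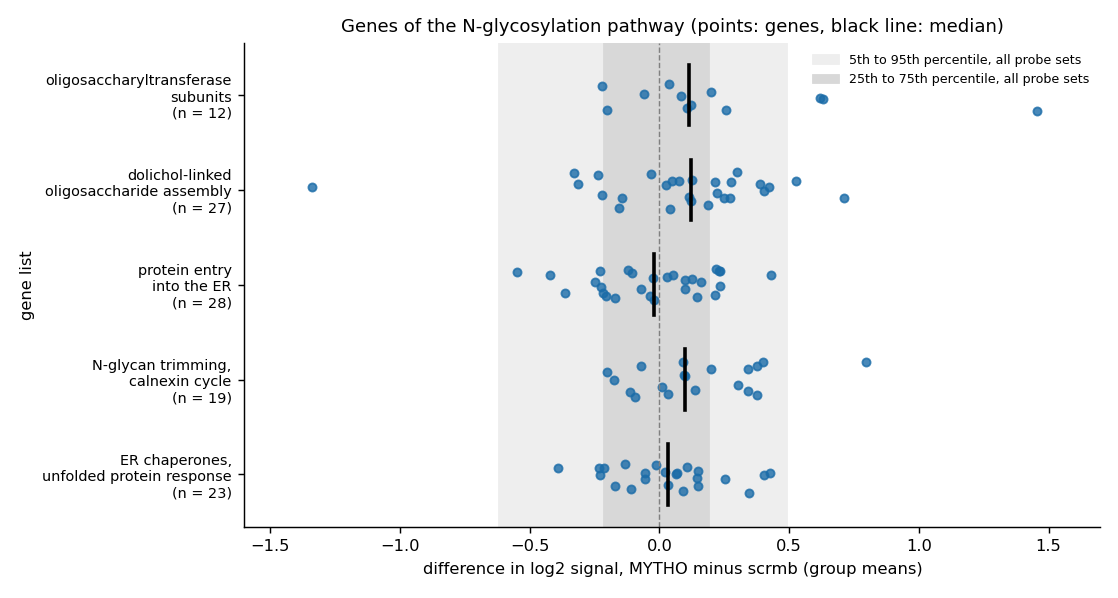
Difference in mean log2 signal, MYTHO minus scrmb, for the OST subunits (12 genes, *Tmem258* and *Magt1* included) and the 4 pathway lists. Points are genes, black lines are list medians, and grey bands span the 25th to 75th and the 5th to 95th percentiles of all probe sets. *Krtcap2* at 1.46 and the *Dpm1* probe set at -1.34 lie farthest from 0, and list medians range from -0.02 (0.02 after median centring, for entry into the ER) to 0.12.

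The genes around *Krtcap2* on chromosome 3 were compared with it, 4 measured genes on one side and 5 on the other. *Trim46*, which overlaps the *Krtcap2* gene by 455 bases, had 3.61 ± 0.17 in scrmb and 3.44 ± 0.24 in MYTHO (SD, n = 4), a difference of -0.18 (limma adjusted p = 0.755). On the same side *Muc1* was at 0.02, *Thbs3* at -0.155 and *Mtx1* at 0.11. On the other side lay *Dpm3*, 7335 bases away with the difference given above, then *Slc50a1* at 0.25, *Efna1* at 0.47, *Efna3* at 0.62 (limma adjusted p = 0.374) and *Efna4* at 0.23. *Efna1* was at 0.255 without MYTHO B and *Efna3* at 0.41 without scrmb A. The groups overlapped for all 9 of these neighbours and none passed the test. *Trim46* lay near the lowest signal of 2.38. The means of *Thbs3*, *Muc1*, *Efna4* and *Dpm3* were also below the lowest array median of 6.39. A change in such dim genes could be missed.

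**Figure D4:**
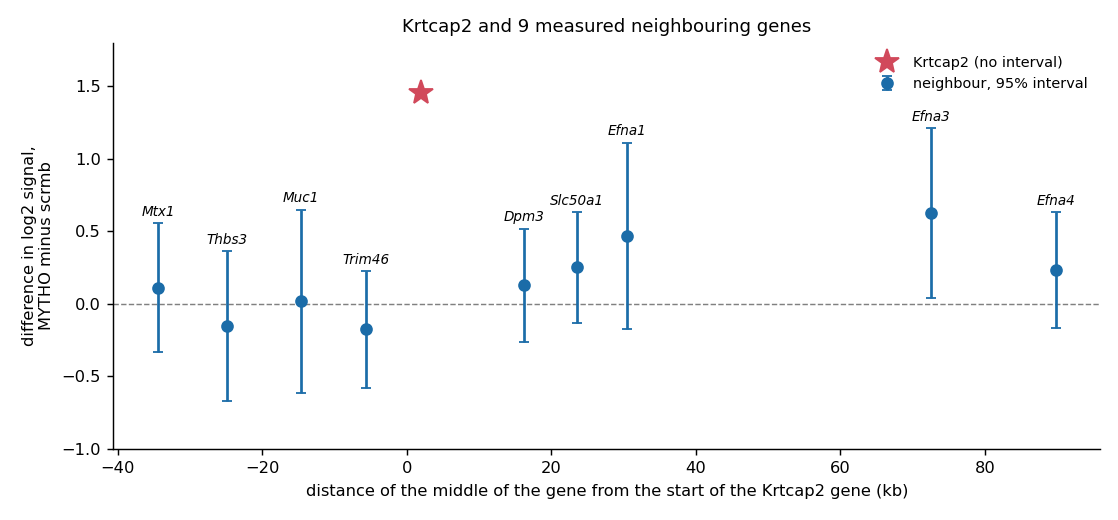
Difference in log2 signal, MYTHO minus scrmb, of *Krtcap2* and 9 neighbouring genes against the distance in kb of the middle of each gene from the start of the *Krtcap2* gene. The star is *Krtcap2*, shown without an interval, circles are neighbours with their 95% limma intervals, and the dashed line marks 0. The neighbours lie between -0.18 and 0.62.

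The makeup of the muscle was read from marker genes. The 10 fast-fibre and general muscle markers, which include genes at the ceiling, had a mean log2 signal between 19.42 and 19.57 on all arrays. All 8 slow-fibre genes had a higher signal in the MYTHO leg of animals A, B and C, and 5 of the 8 did in animal D. The mean log2 signal of the 8 slow-fibre genes was between 10.80 and 12.80 in scrmb and between 10.87 and 13.87 in MYTHO, all 8 had a mean difference above 0 with a median of 1.46, and none passed the adjusted test. Of the 8, 7 had an unadjusted p under 0.05 (4.81% of all probe sets were higher at that threshold), and 6 were also at least 2-fold higher (0.261% of all probe sets). In whole muscle, more fibres of a type and more RNA per fibre cannot be told apart.

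By animal, the median difference of the slow-fibre genes was 1.09 in A, 2.14 in B, 2.84 in C and 0.14 in D. *Myh7*, the slow myosin heavy chain, had 13.75, 11.53, 11.89 and 11.68 in scrmb A to D and 15.13, 14.68, 14.74 and 11.58 in MYTHO A to D. *Krtcap2* differed most in animal C and least in animal D, as the slow-fibre genes did. In animal D, where the slow-fibre mean was 10.80 in the scrmb leg and 10.87 in the MYTHO leg, *Krtcap2* differed by 0.74, *Dad1* by 0.20 and *Tmem258* by 0.49. The part of fibre makeup in the *Krtcap2* difference was not tested.

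**Figure D5:**
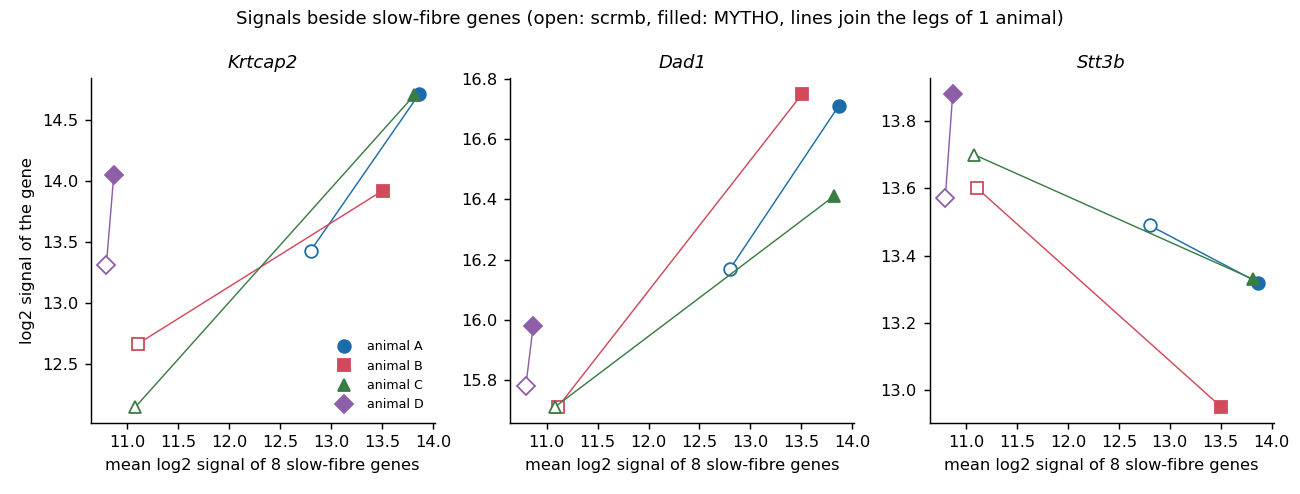
Log2 signal of *Krtcap2*, *Dad1* and *Stt3b* against the mean log2 signal of 8 slow-fibre genes on each array. Open symbols are scrmb arrays, filled symbols are MYTHO arrays, and lines join the legs of 1 animal. The lines of animals A, B and C run to the right, those of animal D are nearly vertical, and *Stt3b* runs downwards in animals A, B and C.

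Markers of other cell types were read in the same way. All 5 endothelial genes had mean differences above 0, with a median of 0.45, and their mean was between 10.17 and 10.75 in scrmb and between 10.89 and 11.08 in MYTHO, without overlap. Of these, *Pecam1*, *Cdh5* and *Tek* each had groups that did not overlap, beside 2.59% of all probe sets, and none passed the test. Groups also did not overlap for the fibroblast gene *Dcn*, at -0.595, and the satellite cell gene *Cdh15*, at 0.51. Neither passed the test, and 3.87% of all probe sets were lower without overlap. Median differences were -0.26 for 6 fibroblast genes, -0.01 for 6 macrophage genes, 0.07 for 6 B and plasma cell genes, -0.17 for 5 T cell genes and 0.04 for 4 satellite cell genes. They were -0.10 for 4 adipocyte genes, -0.43 for 4 Schwann cell genes and 0.23 for 4 blood genes, 3 of which share a probe set with another gene. These last lists varied widely between arrays. By animal, A to D, the median difference was 2.76, -1.745, -1.075 and 0.275 for the adipocyte genes and -1.275, 0.075, 0.52 and 1.835 for the blood genes. The mean of the Schwann cell genes was 8.245 in scrmb C, the array with the lowest *Krtcap2* signal, and between 6.295 and 7.135 on the others. Plasma cells are rich in OST, and the mean of the B and plasma cell genes was between 4.995 and 5.27 in scrmb and between 4.80 and 5.38 in MYTHO. The part of these markers in the *Krtcap2* difference was not tested.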

How the data were processed

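Biotin-labelled RNA from 8 GAS muscles was hybridised to Clariom S Mouse arrays. The authors deposited gene-level log2 signals made with the Transcriptome Analysis Console version 4.0.1 (SST-RMA, annotation release 36, mm10), in which background correction and quantile normalization make arrays comparable and probes are summarised by gene. Signals at the ceiling are lower bounds. The deposited table also holds group averages, folds and p-values, which were not used. Animal numbers in the column names paired the legs, and the labels' replicate numbers could not be tied to columns. Deviations of both legs of 1 animal from their group means correlated by 0.003, -0.001, 0.135 and 0.087 in A to D. The highest correlation with an opposite-group leg of another animal was 0.104, 0.104, 0.052 and 0.076. It exceeded the same-animal value in A and B, so their pairing rests on the column names.

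MYTHO was compared with scrmb by limma version 3.58.1 in R version 4.3.3 (lmFit, eBayes, two-sided, no block; the study names eBayes and no pairing term for its arrays) over 22206 probe sets, with Benjamini-Hochberg adjustment over all of them. The fit was tested on simulated data. Precision is limited by 4 arrays per group. A gene was represented by its row with the highest mean. Named genes were the members, *Mytho*, the 2 highest and 2 lowest of each pathway list, the neighbours and the 5 genes most correlated with *Krtcap2*. The result of 1 neighbour is not reported here. Other genes were named after their values were seen. Members and lists were chosen with earlier results of these data known. All 172 listed genes were matched by symbol. Alternatives were quantile normalization, centring, filters on dim or saturated probe sets, eBayes with trend and robust, array weights, animal blocks, and leaving out arrays or, added after seeing the data, animals.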

Additional observations from a re-analysis of the deposited data

Results flagged for a closer look

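A single array stood far from the other 3 of its group in 4 of 30 groups checked by Dixon's gap test, which chance does in about 1 of 20 groups. For *Dad1*, scrmb A had a log2 signal of 16.17 and the other scrmb arrays lay between 15.71 and 15.78. The *Dad1* groups overlap between this array and MYTHO D at 15.98. For *Stt3a*, MYTHO D had 13.7 and the other MYTHO arrays lay between 13.97 and 14.02. For *D230025D16Rik*, MYTHO C had 8.8 and the others lay between 8.08 and 8.20, so the knockdown was least complete in the animal with the largest *Krtcap2* difference. The mean of the 27 genes of dolichol-linked oligosaccharide assembly was 7.75 in scrmb C, and between 7.94 and 7.96 in the other scrmb arrays.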

How the results depend on the processing

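Over 560 values recomputed under 17 planned and 4 added alternatives, none of the tested subunits, the neighbours or *Mytho* changed its side of the threshold. The sign differed in 25, of which 17 were single genes and 8 were list medians close to 0. Filters, eBayes with trend and robust, and animal blocks leave the mean difference of a gene unchanged by construction. The sign of a gene could not change under them. *Krtcap2* stayed between 1.21 and 1.64 when 1 array was left out, between 1.09 and 1.69 when 1 animal was left out, and between 1.46 and 1.51 otherwise. *Mytho* passed under every alternative run (limma adjusted p from 5.04e-06 to 0.0369). *Dad1* passed under none (limma adjusted p from 0.106 to 0.695). With animal as a fixed or random replicate block, mean differences were unchanged by construction, the median of the 9 tested subunits was 0.105, and 0 of them passed under either block, as without it. *Dad1* had limma adjusted p of 0.265 and 0.228 in the blocked fits.

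Leaving out 1 array turned the sign of *Ostc* (-0.083 to 0.14), *Ddost* (-0.065 to 0.22), *Stt3a* (-0.011 to 0.24), *Mtx1* (-0.0075 to 0.23) and *Muc1* (-0.22 to 0.21). Array weights gave *Muc1* -0.066. Without animal B, *Ostc* was -0.037, *Mtx1* -0.043 and *Thbs3* 0.04. Without animal C, *Ddost* was -0.077 and *Muc1* -0.38, and without animal A *Muc1* was -0.053. Over all arrays these 6 genes lay between -0.155 and 0.11. Without a sign change, leaving out 1 array gave 0.013 to 0.30 for *Rpn1*, 0.15 to 0.41 for *Rpn2*, 0.028 to 0.19 for *Ost4*, -0.39 to -0.080 for *Stt3b*, -0.31 to -0.081 for *Tusc3*, 0.255 to 0.665 for *Efna1* and 0.41 to 0.80 for *Efna3*. The median of the 9 tested subunits was 0.24 without animal D and 0.02 to 0.19 without 1 array. List medians without 1 array ran from 0.071 to 0.23 for dolichol-linked oligosaccharide assembly, 0.055 to 0.19 for trimming, -0.047 to 0.046 for entry into the ER and -0.019 to 0.056 for ER chaperones, and the trimming median was 0.18 without animal B and 0.23 without animal D. The entry median was 0.018 after median centring and 0.037 without animal C, and the chaperone median -0.013 without animal A. Calls in the pathway lists numbered 1 with eBayes trend and robust, and 0 to 1 without 1 array, the call being the *Dpm1* and *Adnp* probe set, which passed without scrmb D. The cause was not tested for any of these. With a fold minimum of 1.5, 546 probe sets were higher and 1107 lower over the whole array, and 1 of the 9 subunits (*Dad1*) was higher. Another probe set per member could not be tried, since each has 1.

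Signal sets the limits otherwise. With 4 arrays per group, the 95% intervals of the 9 subunits left room for differences down to -0.67 and up to 1.09, and array signals do not show protein or glycosylation.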
